A study of Homo sapiens with 15 samples.

Results

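The effect of the bromodomain inhibitor GNE-781 was measured in cells that also received the acetyltransferase inhibitor A-485. The 3 libraries of cells given both compounds (the combination) were compared, gene by gene, with the 3 libraries given A-485 alone, which makes 6 of the 15 libraries of the study. The libraries were taken by their labels. All libraries came from MM.1S, an established human multiple myeloma line in which a translocation drives the transcription factor MAF. The 5 groups of 3 libraries were DMSO (the solvent), A-485, GNE-781, the combination and dCBP-1, a compound that degrades CBP and p300. Each compound was given at 100 nM for 6 h, so the combination received 100 nM of A-485 and 100 nM of GNE-781. The titles of all 3 combination libraries name GNE-781, whereas the treatment field of replicates 2 and 3 counts up the compound's number. That was taken as a labelling slip, which was not tested.

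CBP (CREBBP) and p300 (EP300) are paralogous coactivators that transcription factors recruit to enhancers and promoters. They acetylate histones and other proteins through a catalytic acetyltransferase domain, which A-485 blocks, and bind acetylated lysines through a bromodomain, which GNE-781 occupies. In myeloma cells they sit at the enhancers of lineage genes such as IRF4 and MYC. The comparison therefore asks what GNE-781 changes in cells that also receive A-485. How far catalysis was inhibited was not measured here.

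Reads came from the 3′ ends of transcripts and are given as normalized read counts per gene, with 16.4 to 17.6 M reads in the A-485 libraries and 14.7 to 18.3 M in the combination libraries. Mitochondrially encoded genes took 14.4% to 17.0% of reads in these 6 libraries. In DMSO the range was 16.4% to 23.1%, so comparisons that use DMSO were also fitted without DMSO replicates 1 and 2, which held the highest shares. Plasma cell markers were abundant throughout. The summed levels of the B cell, T and NK cell and myeloid markers overlapped between the groups, at 120.2 normalized read counts or less in each of the 6 libraries. Those of epithelial and stromal genes were 19.0 to 31.2 with A-485 and 41.4 to 50.9 with the combination, and the part of this difference in any result was not tested.

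Adding GNE-781 to A-485 lowered a set of regulators and receptors, several of them plasma cell genes. The transcription factors IRF4, MYC and POU2AF1 fell more than 2-fold, along with TNFRSF17 (BCMA), the chemokine receptors CCR1, CCR2 and CXCR3, and the adaptor BLNK. EGR1, an immediate early transcription factor, rose more than 7-fold, and other immediate early genes rose less. The same sign was seen for most called genes when GNE-781 was given without A-485. JUND, an immediate early gene that rose here, fell there (−0.39, limma adjusted p = 0.037), and both calls depended on the libraries used. By limma, 516 of 16104 genes tested changed at an adjusted p below 0.05 (3.2%), 263 higher (1.63% of genes tested) and 253 lower (1.57%). At least 2-fold differences numbered 56 among the higher and 71 among the lower genes.

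How firmly these counts stand differed by direction and by the library left out. The median of all genes tested was 0.11 above 0 on the log2 scale. Rescaling the libraries by TMM brought the median to 0.01 and gave 283 higher (1.76%) and 707 lower genes (4.39%). The 253 lower genes all kept their call under that scaling, as did 245 of the 263 higher ones. That scaling changed the median by −0.10, which favours lower calls, so the difference between these 2 counts shows no greater firmness. With each of the 6 libraries left out in turn, 108 lower and 33 higher genes were called every time. Without combination replicate 2 the count fell to 187 (47 higher, 140 lower). It was 267 without A-485 replicate 2 (105 and 162), 310 without A-485 replicate 3 (80 and 230) and 400 without combination replicate 3 (126 and 274). The balance tilted the other way without combination replicate 1 (257 higher, 149 lower) or A-485 replicate 1 (290 and 138).

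Transcription factors of plasma cells and myeloma formed one of the clearest groups. Of 32 tested, 8 fell and 0 rose, against a background of 1.57% lower and 1.63% higher among all genes tested. Their median log2 fold change was −0.28, beside 0.11 for all genes tested, and 15 fell under TMM scaling (background 4.39%). Left-out libraries gave 7 to 9. The members that fell were IRF4, MYC, POU2AF1, PRDM1, MAF, NFIL3, KLF13 and XBP1.

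IRF4 (ENSG00000137265) encodes the interferon regulatory factor on which myeloma cells depend. It stood at 2364, 1631 and 1667 normalized read counts in the A-485 libraries and at 484, 676 and 905 in the combination libraries. The groups did not overlap, a relation found in 7% of all genes tested in the lower direction and 15% in the higher one. The log2 fold change was −1.48 ± 0.19 (SE; limma adjusted p = 1.8e-05), with a 95% interval of −1.87 to −1.08. DMSO libraries held 2211 to 2476, which overlapped the A-485 libraries and lay above all combination libraries.

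MYC (ENSG00000136997), the growth regulator, read 1095, 588 and 816 with A-485 and 162, 229.7 and 412 with the combination. The drop was 3.24-fold on the fitted scale, or −1.70 ± 0.33 (limma adjusted p = 0.0030), with an interval of −2.38 to −1.01. All combination libraries lay under all A-485 libraries, combination replicate 3 closest to them. With a robust variance prior the adjusted p was 0.088. Of 10 tested genes of the MYC and MAX partner network MYC was the 1 called (background 1.57% lower and 1.63% higher). Under TMM scaling 3 of the 10 fell (background 4.39%). MAX itself had −0.14 ± 0.15 (limma adjusted p = 0.70).

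POU2AF1 encodes the B lineage coactivator OCA-B, which docks on octamer-bound OCT factors. Its levels were 2797, 2268 and 2385 with A-485 and 818, 926 and 1162 with the combination, well apart (−1.37 ± 0.15, limma adjusted p = 9.6e-07). PRDM1 (BLIMP1), the repressor that fixes plasma cell identity, went from 7059, 5629 and 5909 to 2932, 3531 and 3774 (−0.86 ± 0.13, limma adjusted p = 0.00019). MAF, the oncogene activated by the translocation in this line, went from 11187, 9389.5 and 10179 to 5148, 5547 and 6709 (−0.83 ± 0.14, limma adjusted p = 0.00080). Neither gene's groups overlapped.

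Smaller falls were seen for NFIL3, a basic leucine zipper repressor (−0.74 ± 0.14), KLF13, a Krüppel-like factor (−0.69 ± 0.15), and XBP1, the secretory pathway activator (−0.62 ± 0.13). Their limma adjusted p values ran from 0.0018 to 0.0076. In each of these 3 genes the combination libraries were all below the A-485 libraries. KLF13 lost its call without combination replicate 2 (adjusted p = 0.074) or A-485 replicate 1 (0.051).

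**Figure D1:**
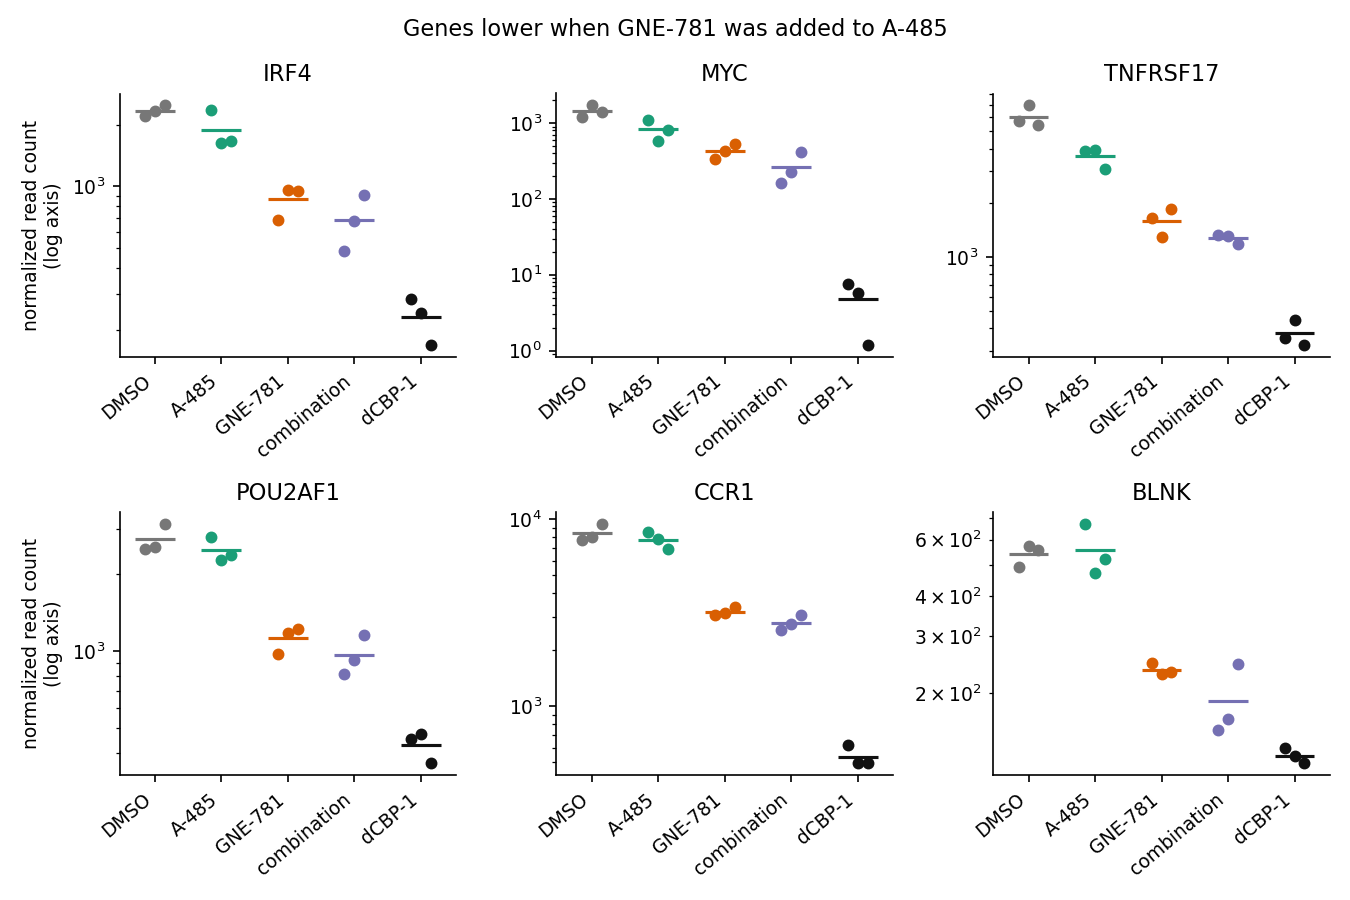
Normalized read counts (log axis, a separate scale for each gene) of IRF4, MYC, TNFRSF17, POU2AF1, CCR1 and BLNK in the 3 libraries (points) of each of the 5 groups, with the group mean as a bar. In all 6 genes the combination libraries lie below the A-485 libraries, and the dCBP-1 libraries are lowest.

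Octamer sequences were looked for in front of the genes that fell, because POU2AF1 was among them. The windows were the 250 bases before 1 RefSeq start per gene (GRCh38.p14), available for 189 of the 253 lower genes, 218 of the 263 higher genes and 11120 of the genes tested. The octamer ATGCAAAT, read on both strands, was present in 8 of 189 windows of lower genes (4.23%), 5 of 218 of higher genes (2.29%) and 155 of all tested (1.39%). It occurred in 1.63% of all 35116 windows in the RefSeq table. A match is a description of letters and shows no binding. HDAC9, HES6 and ST6GAL1, shown here with the octamer in capitals, are 3 of the 8 and were chosen after the matches were seen; all 3 octamers lie within 60 bases of the start.
HDAC9, chr7:18495499-18495748, plus strand: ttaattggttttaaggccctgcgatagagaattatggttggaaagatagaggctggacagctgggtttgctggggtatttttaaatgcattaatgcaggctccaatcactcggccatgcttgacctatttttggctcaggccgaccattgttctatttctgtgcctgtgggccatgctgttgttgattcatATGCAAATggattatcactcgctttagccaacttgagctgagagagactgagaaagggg
HES6, chr2:238240039-238240288, minus strand: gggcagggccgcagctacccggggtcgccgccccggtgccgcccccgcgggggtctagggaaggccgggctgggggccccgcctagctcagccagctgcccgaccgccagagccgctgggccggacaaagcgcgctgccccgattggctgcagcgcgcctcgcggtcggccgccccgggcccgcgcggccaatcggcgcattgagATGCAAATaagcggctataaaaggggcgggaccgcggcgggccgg
ST6GAL1, chr3:186930276-186930525, plus strand: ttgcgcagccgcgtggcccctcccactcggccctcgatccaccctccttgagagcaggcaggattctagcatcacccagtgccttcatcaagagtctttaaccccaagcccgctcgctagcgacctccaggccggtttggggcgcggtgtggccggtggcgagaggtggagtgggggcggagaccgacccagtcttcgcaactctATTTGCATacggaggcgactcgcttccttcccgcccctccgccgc

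HDAC9, a class IIa histone deacetylase, carries its octamer 59 bases before the start and fell from 307, 295 and 273 to 123, 141 and 107 (−1.23 ± 0.19, limma adjusted p = 0.00019). HES6, a basic helix-loop-helix factor, and ST6GAL1, which sialylates B cell glycoproteins, each carry it 45 bases before the start, in ST6GAL1 on the opposite strand. HES6 fell from 1289, 1140.2 and 881 to 579, 582 and 494 (−0.99 ± 0.14, limma adjusted p = 7.2e-05). ST6GAL1 fell from 6281, 5656 and 4556 to 3043, 4068 and 3767 (−0.60 ± 0.14, limma adjusted p = 0.014), a call lost without combination replicate 1 (adjusted p = 0.082), A-485 replicate 1 (0.072) or A-485 replicate 2 (0.071). The other 5 were CDK14, ARMC6, SINHCAF and the neighbouring histone genes H2AC20 and H2AC21, whose reads may be split among near-identical copies. Without combination replicate 2 none of these 5 was called (adjusted p from 0.093 to 0.20), and each also lost its call without at least 1 other library.

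Other motifs were counted in the same windows. The composite of an ETS and an IRF half-site was in 1.06% of windows of lower genes, 1.83% of higher genes and 2.27% of genes tested. The repeat of IRF half-sites, which can overlap it, was in 1.06%, 2.29% and 2.39%. The E-box CACGTG was in 8.99%, 8.26% and 8.79%.

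Surface molecules and receptors of plasma cells fell alongside the transcription factors. Of 29 surface and secretory genes tested, 8 fell and 0 rose, and 26 of the 29 had a negative log2 fold change, with a median of −0.31. Over all genes tested 1.57% fell, 1.63% rose, 5999 of 16104 were negative and the median was 0.11. TNFRSF17, TNFRSF13B, SDC1, IL6R, ITGA4, CD48, SLAMF7 and IL6ST were the 8. Left-out libraries gave 5 to 10, and TMM scaling 14 (background 4.39%). CD38 was not among them (−0.12 ± 0.15, limma adjusted p = 0.75). The summed level of 8 plasma cell markers, which include several of these genes, was 38520 to 46617 with A-485 and 23013 to 26968 with the combination; in such bulk samples fewer cells of a type and less RNA per cell cannot be told apart.

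TNFRSF17 (ENSG00000048462) encodes BCMA, the survival receptor targeted by myeloma immunotherapies. Its levels were 3874, 3907 and 3089 with A-485 and 1329, 1313 and 1183 with the combination. These tight, separate groups gave −1.50 ± 0.15 (limma adjusted p = 2.2e-07), and in DMSO the gene stood higher still, at 5409 to 6948. TNFRSF13B encodes TACI, the related receptor for the same ligands. It went from 2667, 2979.9 and 2545 to 1313, 1135 and 1247 (−1.15 ± 0.13, limma adjusted p = 1.7e-06).

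SDC1 encodes syndecan-1 (CD138), the classical plasma cell surface marker. It went from 5655, 5213 and 4479 to 2583, 2950.5 and 2848 (−0.87 ± 0.12, limma adjusted p = 7.2e-05). Both chains of the interleukin-6 receptor, which carries the main growth signal of myeloma cells, were lower as well. IL6R, the ligand-binding chain, went from 3826, 3619.8 and 3551 to 1619, 2047 and 2029 (−0.96 ± 0.14, limma adjusted p = 7.2e-05). The signalling chain IL6ST fell less (−0.54, limma adjusted p = 0.036), a call lost without combination replicate 1 (adjusted p = 0.15), combination replicate 2 (0.14), A-485 replicate 1 (0.14) or A-485 replicate 3 (0.075).

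ITGA4, the integrin chain with which plasma cells hold on to marrow stroma, read 1521, 1193 and 1148 with A-485 and 549, 616 and 834 with the combination (−0.96 ± 0.16, limma adjusted p = 0.00059). CD48, a ligand on blood cells, was the exception to clean separation: its highest combination library (1260.2) exceeded its lowest A-485 library (1215), although the fit called it (−0.93 ± 0.21, limma adjusted p = 0.012). That call ended without combination replicate 1 (adjusted p = 0.084), combination replicate 2 (0.076) or A-485 replicate 1 (0.090). SLAMF7, a myeloma surface antigen, had −0.59 ± 0.14 (limma adjusted p = 0.012), and lost its call without combination replicate 1 (adjusted p = 0.073) or A-485 replicate 1 (0.062).

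Chemokine receptors had the lowest median of the 30 gene lists. All 7 tested had a negative log2 fold change, the median was −1.47, and CCR1, CXCR3 and CCR2 fell, the same count with each library left out. Among all genes tested 5999 of 16104 were negative and 1.57% fell. CCR1 (ENSG00000163823), a receptor for inflammatory chemokines and a known MAF target, stood at 8481, 7788 and 6901 with A-485 and at 2566, 2746 and 3064 with the combination. Its log2 fold change of −1.47 ± 0.13 had the smallest standard error among the 15 named falls (limma adjusted p = 2.7e-08). A-485 alone had left CCR1 within the DMSO range, which ran from 7681 to 9406, apart from replicate 3.

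CXCR3, the receptor for interferon-induced chemokines, went from 420.3, 390.2 and 334 to 164, 169.8 and 118 (−1.35 ± 0.21, limma adjusted p = 0.00018). CCR2, the receptor for monocyte chemoattractants, was a lower-level gene with a steeper fall, from 186, 141 and 159 to 18.3, 31.7 and 36 (−2.50 ± 0.38, limma adjusted p = 0.00013). CXCR4, which retains plasma cells in the marrow, was not called (−0.24 ± 0.16, limma adjusted p = 0.46).

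Components of B cell receptor signalling were lower in part. Of 20 tested, BLNK, PTK2B and PTPN6 fell and 0 rose (background 1.57% lower and 1.63% higher). The number of falls was again 3 when each library was left out, and 5 under TMM scaling (background 4.39%). BLNK, the adaptor that links the receptor's kinases to calcium signalling, read 671, 471 and 523 with A-485 and 154, 166 and 246 with the combination (−1.57 ± 0.18, limma adjusted p = 2.2e-06). PTK2B, a calcium-activated tyrosine kinase, read 3789, 4082 and 3813 against 1779.7, 1924 and 2049 (−1.02 ± 0.13, limma adjusted p = 1.1e-05). The phosphatase PTPN6 (SHP-1) fell less (−0.76, limma adjusted p = 0.0028).

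The BCL2 family holds promoters and inhibitors of cell death. Of 14 tested, the anti-apoptotic BCL2 and the pro-apoptotic BMF fell and 0 rose (background 1.57% lower and 1.63% higher). BCL2 went from 1141, 1009.8 and 894 to 493, 613 and 620.2 (−0.82 ± 0.15, limma adjusted p = 0.0011), and BMF from 537, 507 and 475 to 258, 263 and 339 (−0.83 ± 0.17, limma adjusted p = 0.0058). MCL1, on which most myeloma cells rely, had −0.27 ± 0.14 (limma adjusted p = 0.32) with overlapping libraries.

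NF-kB subunits and targets were mixed. Of 24 tested, TNFAIP3, BIRC3, PLEK and CFLAR fell and 0 rose, while 14 had a positive log2 fold change and the median was 0.04 (−0.06 under TMM scaling). Over all genes tested 1.57% fell, 1.63% rose, 62.7% were positive and the median was 0.11. TNFAIP3 (A20), the feedback inhibitor of NF-kB, went from 2077, 1799 and 1911 to 979, 947 and 1236 (−0.88 ± 0.15, limma adjusted p = 0.00048). BIRC3, an apoptosis inhibitor and ubiquitin ligase of the pathway, went from 1884, 1611 and 1608 to 886, 1021 and 1104 (−0.76 ± 0.14, limma adjusted p = 0.0010). The call of CFLAR, a caspase-8 inhibitor, depended on single libraries: −0.48 ± 0.12 (limma adjusted p = 0.021), but adjusted p values of 0.053 without combination replicate 1, 0.093 without combination replicate 3, 0.058 without A-485 replicate 1 and 0.11 without A-485 replicate 2.

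Ribosome biogenesis genes, many of them MYC targets, shifted slightly but widely. Of 47 tested, 41 had a negative log2 fold change, with a median of −0.25, and 6 fell, namely GNL3, WDR3, UTP20, RRP12, RRP9 and DKC1. TMM scaling gave 19 (background 4.39%), and left-out libraries 2 to 6. Among all genes tested 5999 of 16104 were negative, the median was 0.11 and 1.57% fell. GNL3 (nucleostemin), a nucleolar GTPase, went from 7419.7, 6149.8 and 5206 to 3838, 3931 and 3946 (−0.67 ± 0.13, limma adjusted p = 0.0035) and kept its call under every alternative run. The other 5 each lost theirs without at least 1 library: WDR3 without A-485 replicate 2 (adjusted p = 0.054), and UTP20, RRP12, RRP9 and DKC1 without combination replicate 2 (0.050 to 0.16) and others. Of the 40 cytosolic ribosomal protein genes 0 were called by limma, edgeR or DESeq2, with a median of 0.07 (−0.04 under TMM scaling). None of the 40 had an unadjusted p below 0.05, beside 2868 of 16104 genes tested. SLC19A1, a folate transporter, was the 1 call among 30 metabolic and growth targets of MYC (−0.59 ± 0.13, limma adjusted p = 0.0094, and 0.072 without A-485 replicate 2). Under TMM scaling 5 of the 30 fell.

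Single genes of several other pathways fell. CIITA, the master activator of MHC class II, lay below the level the naming rule asks for. It was the 1 call among 13 class II genes, of which 2 fell under TMM scaling (background 4.39%). CIITA fell from 151, 193 and 188 to 68.5, 60 and 71 (−1.40 ± 0.29, limma adjusted p = 0.0056). IGF1, a growth factor for myeloma cells, went from 2566, 2042 and 2084 to 779, 921 and 975 (−1.32 ± 0.13, limma adjusted p = 3.9e-07). TP53INP1, a p53-induced regulator of stress and autophagy, went from 1058, 753 and 803 to 297, 304 and 297 (−1.52 ± 0.16, limma adjusted p = 4.1e-07). Of 25 p53 targets it was the 1 that fell, and ZMAT3 was the 1 that rose (0.54 ± 0.15, limma adjusted p = 0.042), a call lost under TMM scaling (0.068) and without any 1 library except combination replicate 1 (0.063 to 0.28).

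MAGI2, a membrane scaffold, had the largest of the 15 named falls, which were taken among genes at or above the median level, from 407, 249.7 and 336 to 78.8, 109 and 99.4 (−1.76 ± 0.21, limma adjusted p = 2.8e-06). CYP26A1, which degrades retinoic acid, went from 1251, 734 and 795 to 171, 285 and 561 (−1.57 ± 0.29, limma adjusted p = 0.0013; 0.057 with a robust variance prior). Combination replicate 3 was closest to the A-485 range. RARA, a retinoic acid receptor and the other faller among 8 genes of that pathway, had −0.95 ± 0.23 (limma adjusted p = 0.020) and lost its call without combination replicate 1 (adjusted p = 0.11), combination replicate 2 (0.12), A-485 replicate 1 (0.074) or A-485 replicate 3 (0.097). The remaining named falls were MGLL (−1.52), C11orf96 (−1.47) and ZBP1 (−1.25), a sensor of nucleic acids. Each of the 15 but MYC and CYP26A1 kept its call under every alternative run.

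Stress responses and MAF targets gave some further calls, beside 1.57% lower and 1.63% higher among all genes tested. Of 31 unfolded protein response genes, ERN1, XBP1 and SEL1L fell, and 5 fell under TMM scaling (background 4.39%). ERN1 (IRE1), the sensor that splices XBP1, went from 1125, 1024 and 875 to 537, 664 and 673 (−0.69 ± 0.14, limma adjusted p = 0.0038). Of 24 genes of the ATF4 amino acid response, the asparagine synthetase ASNS rose, but not without combination replicate 2 (adjusted p = 0.15), A-485 replicate 1 (0.052) or A-485 replicate 3 (0.092). Of 9 MAF targets, CCR1 and DEPTOR fell, and 4 fell under TMM scaling. DEPTOR, an mTOR inhibitor, had −0.70 ± 0.17 and lost its call without combination replicate 1 (adjusted p = 0.082), A-485 replicate 1 (0.080) or A-485 replicate 2 (0.052).

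**Figure D2:**
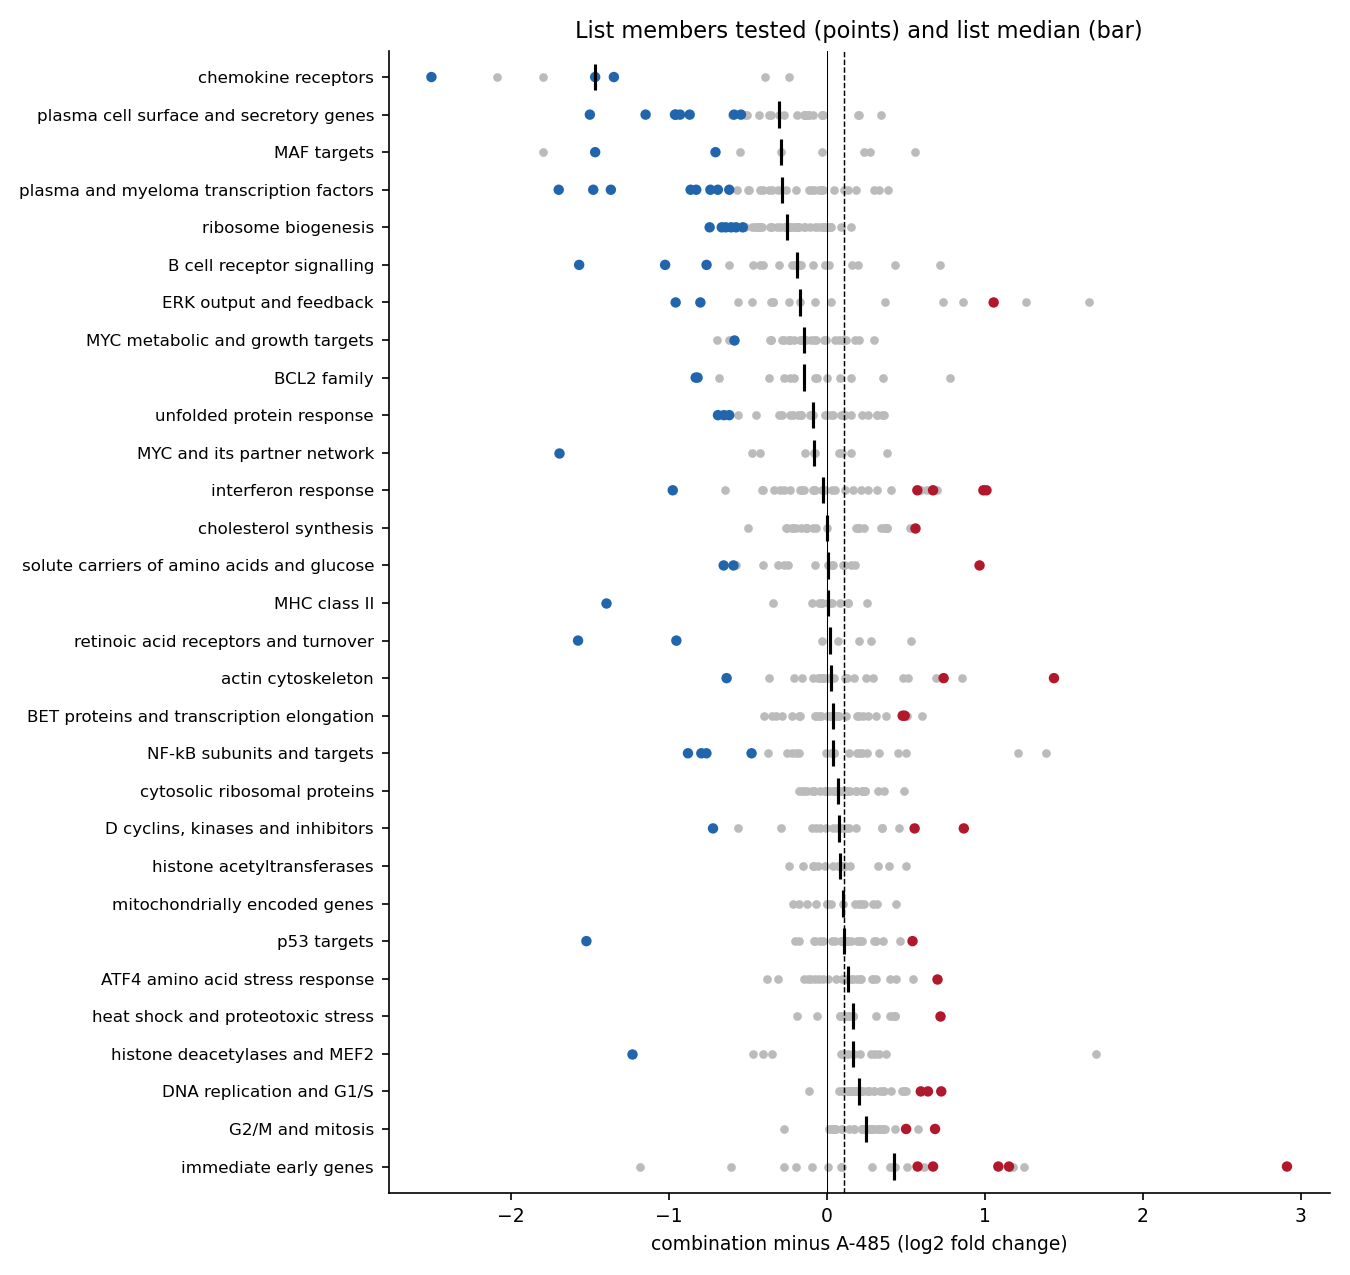
Log2 fold change of the combination against A-485 (x axis) for each tested member (points) of the 30 gene lists, with the list median as a bar, the median of all genes tested (0.11) as a dashed line, members that fell in blue and members that rose in red. Chemokine receptors lie furthest to the left with a median of −1.47 and immediate early genes furthest to the right with a median of 0.42.

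In the other direction, immediate early genes stood out. Of 22 tested, 5 rose (EGR1, FOS, JUN, JUND and NR4A2) and 0 fell, with a median of 0.42. Left-out libraries gave 2 to 4 rises, and TMM scaling 5 rises and 1 fall. Over all genes tested 1.63% rose, 1.57% fell and the median was 0.11. EGR1 (ENSG00000120738), the zinc finger factor induced within minutes of growth factor signalling, stood at 61.7, 30.3 and 44.3 with A-485 and at 416, 320.3 and 282 with the combination. Its log2 fold change of 2.91 ± 0.24 (limma adjusted p = 1.5e-08) corresponds to 7.53-fold. DMSO libraries held 32.7 to 61.9, about the same range as A-485 without GNE-781.

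JUN, the AP-1 subunit, rose from 1785, 1371 and 1239.9 to 2187, 2463 and 2282 (0.67 ± 0.14, limma adjusted p = 0.0058). JUND, a further AP-1 subunit, rose by 0.57 ± 0.13 (limma adjusted p = 0.010), but not without combination replicate 3 (adjusted p = 0.064) or A-485 replicate 2 (0.059). With GNE-781 against DMSO JUND changed the other way (−0.39, limma adjusted p = 0.037). Without DMSO replicates 1 and 2, which leaves 1 DMSO library, the value was −0.39 and was not called. NR4A2, an orphan nuclear receptor, rose from 33.9, 44.1 and 29.3 to 78.8, 84.9 and 75.3 (1.15 ± 0.30, limma adjusted p = 0.026). That call was lost without any 1 library except A-485 replicate 2, with adjusted p values from 0.055 to 0.13. FOS, the AP-1 partner of JUN, overlapped between groups, with 103, 43.1 and 55.4 against 96.4, 138 and 181. Its call (1.09 ± 0.27, limma adjusted p = 0.022) ended without combination replicate 2 (adjusted p = 0.10), combination replicate 3 (0.12), A-485 replicate 2 (0.16) or A-485 replicate 3 (0.10).

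Genes downstream of ERK, the kinase that induces EGR1, did not move one way. Of 17 tested, ETV5 rose and the feedback inhibitors DUSP4 and SPRY1 fell, with a median of −0.17. The background was 1.63% higher and 1.57% lower, with a median of 0.11. TMM scaling gave 1 rise and 4 falls (background 1.76% and 4.39%). DESeq2 gave 1 rise and 7 falls, beside 470 and 943 among all 16104 genes tested. ETV5, an ETS factor, rose from 403, 374 and 308 to 701, 823 and 725 (1.06 ± 0.16, limma adjusted p = 0.00011). DUSP4, a phosphatase that inactivates ERK, went from 1929.9, 1566 and 1665 to 837, 903 and 1259 (−0.80 ± 0.17, limma adjusted p = 0.0063; 0.052 without combination replicate 2). SPRY1 (−0.96 ± 0.25, limma adjusted p = 0.032) lost its call without any 1 library except combination replicate 3, with adjusted p values from 0.079 to 0.18. DUSP6 had −0.17 ± 0.14 (limma adjusted p = 0.58).

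**Figure D3:**
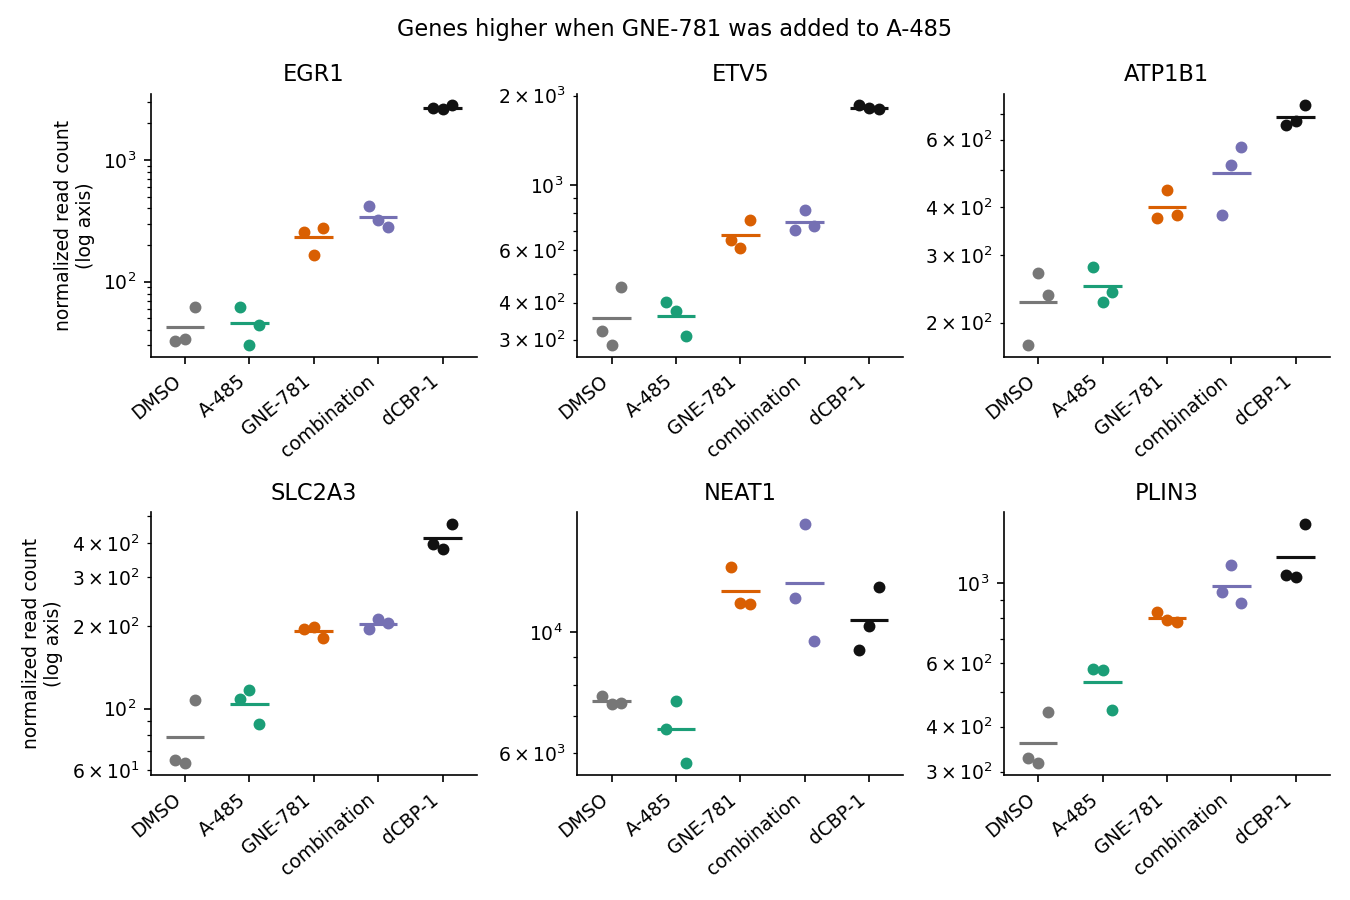
Normalized read counts (log axis, a separate scale for each gene) of EGR1, ETV5, ATP1B1, SLC2A3, NEAT1 and PLIN3 in the 3 libraries (points) of each of the 5 groups, with the group mean as a bar. In all 6 genes the combination libraries lie above the A-485 libraries and near the GNE-781 libraries.

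The remaining rises were modest and spread over functions. SLC2A3, the glucose transporter GLUT3, rose from 109, 117 and 87.8 to 194, 212 and 205 (0.97 ± 0.20, limma adjusted p = 0.0058). Its groups were far apart relative to their spread. Among actin cytoskeleton genes LIMA1, which bundles actin filaments, rose (0.74 ± 0.17, limma adjusted p = 0.011), lost without combination replicate 2 (adjusted p = 0.090), A-485 replicate 2 (0.063) or A-485 replicate 3 (0.076). Profilin (PFN1) fell (−0.63 ± 0.18, limma adjusted p = 0.041), lost without any 1 library except combination replicate 3 (adjusted p from 0.079 to 0.16).

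ATP1B1, a sodium pump subunit, rose from 279.5, 227 and 240.4 to 382, 515 and 574 (0.96 ± 0.17, limma adjusted p = 0.0011). PLIN3, a lipid droplet coat protein, rose from 578, 576 and 444 to 945, 1124 and 882 (0.89 ± 0.16, limma adjusted p = 0.0010). NEAT1, the long non-coding RNA that scaffolds paraspeckles, rose from 6646, 7490.1 and 5738 to 11555, 15818 and 9623 (0.87 ± 0.15, limma adjusted p = 0.00091). All 3 kept their call under every alternative run, as did ETV5, ARHGEF11, SANBR, CPLANE1 and SLC35E3.

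The other 7 of the 15 named rises lost their call in at least 1 alternative. KCNS3 (1.05), PDLIM5 (0.89), SCD5 (0.89) and DYNC1I2 (0.88) lost it without combination replicate 2, with adjusted p values of 0.12, 0.14, 0.069 and 0.13. ATN1 (0.97) had 0.61 without combination replicate 3 (adjusted p = 0.22), and its combination libraries read 216, 239 and 484. MAN2B2 (0.97) and TCEAL9 (0.87) lost it without A-485 replicate 3 (adjusted p = 0.088 and 0.15), among other libraries.

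Cell cycle genes had mostly positive values and few calls. Over all genes tested 62.7% had a positive log2 fold change, 1.63% rose and 1.57% fell. Of 36 G2/M and mitosis genes, 35 had a positive log2 fold change, with a median of 0.25, and NDC80 and NUSAP1 rose. Of 36 DNA replication genes, 35 were positive, with a median of 0.20, and RRM2, RFC4 and GINS4 rose. Under TMM scaling these medians were 0.15 and 0.10, and all 5 calls ended without combination replicate 2, with adjusted p values from 0.060 to 0.19. Those of NDC80, NUSAP1, RFC4 and GINS4 also ended without A-485 replicate 2 (0.079 to 0.14), and those of NDC80, NUSAP1 and GINS4 without A-485 replicate 3 (0.11 to 0.14). NUSAP1, RFC4 and GINS4 were not called without combination replicate 3 (0.082 to 0.11). RRM2, a subunit of ribonucleotide reductase, read 9446, 8043 and 7266 with A-485 and 11339, 13154 and 12756 with the combination (0.59 ± 0.13, limma adjusted p = 0.0080). CDK6, the G1 kinase, fell (−0.72 ± 0.15, limma adjusted p = 0.0069; 0.052 without combination replicate 1), while CCND2, its abundant cyclin partner, had −0.29 ± 0.15 (limma adjusted p = 0.31).

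Other lists held isolated calls, most of which rested on single libraries. The background was 1.63% higher and 1.57% lower. HSP90AA1, a heat shock chaperone, was the 1 call among 17 heat shock genes. It rose by 0.72 ± 0.16 (limma adjusted p = 0.010; 0.10 without combination replicate 2 and 0.050 without A-485 replicate 3). EBP rose among 25 cholesterol synthesis genes (0.56), and BRD2 and AFF4 among 30 BET and elongation genes (0.48 and 0.49). CDKN1C and CDKN2D, inhibitors of cyclin-dependent kinases, rose (0.87 and 0.56), as 2 of the 3 calls among 18 genes of the D cyclin list. None of these 5 was called without combination replicate 2 (adjusted p from 0.086 to 0.26), combination replicate 3 (0.058 to 0.10), A-485 replicate 2 (0.052 to 0.18) or A-485 replicate 3 (0.11 to 0.19), and CDKN2D was not called under TMM scaling (0.067).

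Of 17 solute carriers of amino acids and glucose SLC2A3 rose, and SLC7A6 (−0.59) and SLC43A2 (−0.65) fell. Without combination replicate 1, combination replicate 2, A-485 replicate 1 or A-485 replicate 2 neither fall was called (adjusted p from 0.052 to 0.23), and SLC43A2 was not called without A-485 replicate 3 (0.098) either. HDAC9 was the 1 call among 15 histone deacetylase and MEF2 genes, of which 3 fell under TMM scaling (background 4.39%). Of 15 mitochondrially encoded genes 0 were called by limma, edgeR or DESeq2, with 1 at an unadjusted p below 0.05.

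Interferon response genes showed no common direction, with 4 higher and 1 lower of 32 and a median of −0.02. Over all genes tested 1.63% were higher and 1.57% lower, with a median of 0.11. IRF2, a repressor and activator of interferon genes, went from 1191, 1035 and 859.5 to 449, 594 and 521 (−0.98 ± 0.16, limma adjusted p = 0.00051). IFI6 (0.99), XAF1 (1.01), STAT3 (0.67) and IRF7 (0.57) were the 4 higher ones, and without combination replicate 2 the list had 0 rises (adjusted p from 0.061 to 0.21). IFI6 was also lost without A-485 replicate 1 (0.059), XAF1 without A-485 replicate 2 (0.13), STAT3 without A-485 replicates 2 (0.068) or 3 (0.13), and IRF7 without combination replicate 3 (0.12) or A-485 replicates 2 (0.069) or 3 (0.17).

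The targets of the compounds were not called at the RNA level. CREBBP read 1701, 1477 and 1175 with A-485 and 1726, 2080.2 and 1859.7 with the combination (0.39 ± 0.15, 95% interval 0.09 to 0.69, limma adjusted p = 0.14). EP300 read 1175, 983 and 1132 against 1248, 1850.4 and 1609.6 (0.50 ± 0.16, interval 0.17 to 0.83, limma adjusted p = 0.083). Both genes' combination libraries lay above all A-485 libraries. Of the 16 histone acetyltransferase genes 0 were called by limma, edgeR or DESeq2. An unadjusted p below 0.05 was found for 2 of them, beside 2868 of 16104 genes tested. EP300 was called without combination replicate 1 (0.66, limma adjusted p = 0.035).

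The effect of GNE-781 without A-485, against DMSO, uses none of the 6 libraries and was set beside these values. With GNE-781 against DMSO, 1419 genes were lower (8.81% of genes tested) and 1260 higher (7.82%). Of the 253 genes that fell when GNE-781 was added to A-485, 226 also fell with GNE-781 against DMSO, which is 89.3% of the first list and 15.9% of the second. Of the 263 that rose, 175 rose there, 66.5% of the first and 13.9% of the second. The sign was the same for 250 of 253 and for 255 of 263, where 43.8% of all genes tested were negative and 56.2% positive with GNE-781 against DMSO.

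The medians of the 2 contrasts were set side by side for the same genes. Over the 253 lower genes the median was −0.83 with A-485 present and −0.91 without it, and over the 263 higher genes it was 0.75 and 0.65; the genes had been picked for the first contrast. Without DMSO replicates 1 and 2, 183 of the 253 (72.3%) and 37 of the 263 (14.1%) were called in both, beside 4.50% and 0.987% of all genes tested, and the sign was the same for 253 and 249. Across all 16104 genes, which are not independent replicates and include many of low level, Pearson's correlation of the 2 sets of log2 fold changes was 0.355, and 0.318 without DMSO replicates 1 and 2.

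Single genes are given with both effects. IRF4 had −1.48 ± 0.19 with A-485 present and −1.44 ± 0.19 without it, and POU2AF1 −1.37 ± 0.15 and −1.28 ± 0.15. CCR1 had −1.47 ± 0.13 and −1.38 ± 0.13, TNFRSF17 −1.50 ± 0.15 and −1.93 ± 0.15. EGR1 had 2.91 ± 0.24 and 2.44 ± 0.24. The test of the difference between the 2 effects left all 5 uncalled, with limma adjusted p values from 0.57 to 0.99; for IRF4 the 95% interval of that difference was −0.59 to 0.53 and for CCR1 −0.46 to 0.29. Without DMSO replicates 1 and 2 the effect of GNE-781 without A-485 was −1.53 for IRF4, −1.49 for POU2AF1, −1.56 for CCR1, −1.78 for TNFRSF17 and 1.86 for EGR1, and the 5 differences, from 0.05 for IRF4 to 1.05 for EGR1, were again not called (limma adjusted p from 0.33 to 0.97). Those of IRF4, POU2AF1 and CCR1 were below 0 with all DMSO libraries and above 0 in this fit.

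**Figure D4:**
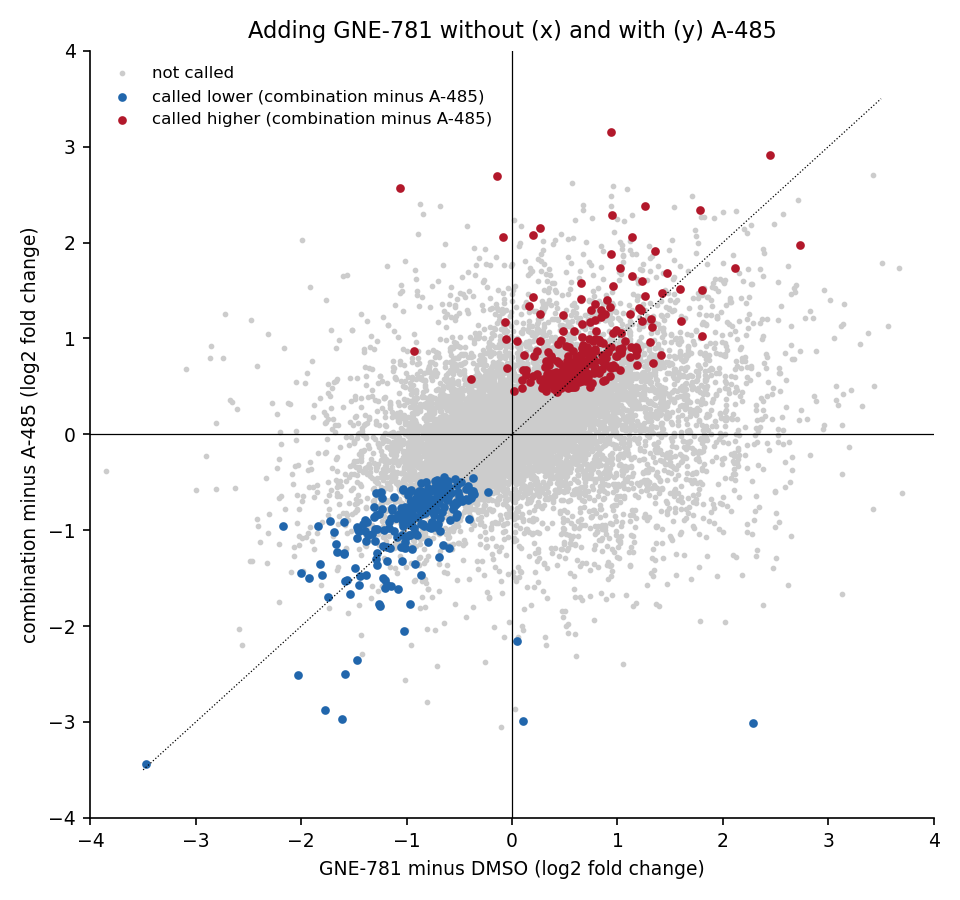
Log2 fold change of GNE-781 against DMSO (x axis) and of the combination against A-485 (y axis) for the 16104 genes tested (points), with genes that fell on the y axis in blue, genes that rose in red and the line of equal values dotted. Nearly all coloured points lie in the lower left or upper right quadrant, 250 of 253 blue points to the left of 0 and 255 of 263 red points to the right.

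Whether the effect of GNE-781 differed with and without A-485 was tested directly as an interaction. By limma 72 genes were called (0.447% of genes tested), 70 with a higher value in the presence of A-485 and 2 with a lower one. All 70 fell with GNE-781 against DMSO and had a lower mean with A-485 than with DMSO, and 68 of them were not called when GNE-781 was added to A-485. In the latter contrast 45 of the 70 had a positive log2 fold change, beside 62.7% of all genes tested. The 70 were chosen by a contrast that contains the DMSO and A-485 means, so these counts describe the choice and are no separate result.

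NFKB2 (ENSG00000077150), the precursor subunit of the non-canonical NF-kB pathway, kept its call under TMM scaling. It read 2063, 2324 and 1606 in DMSO, 685, 715 and 946 with A-485, 726, 719.8 and 671 with GNE-781 and 846, 819 and 1001 with the combination. GNE-781 alone lowered it by −1.48 ± 0.15 (limma adjusted p = 1.2e-07), whereas its addition to A-485 gave 0.19 ± 0.15 (interval −0.11 to 0.50, limma adjusted p = 0.54). The difference between these effects was 1.68 ± 0.21 (limma adjusted p = 0.00012). All treated libraries lay below all DMSO libraries, and those with A-485, GNE-781 or both spanned 671 to 1001.

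SF3A2, a splicing factor subunit, read 310.4, 368 and 470.5 with A-485 and 451, 357 and 432 with the combination, beside 1239.7, 1153 and 674 in DMSO; its difference was 1.89 ± 0.27 (limma adjusted p = 0.00083). TYMP, thymidine phosphorylase, had 1.78 ± 0.29 (limma adjusted p = 0.0037), and BCL2L1 (BCL-XL), an anti-apoptotic gene, 1.03 ± 0.23 (limma adjusted p = 0.040). SPATC1L (1.80 ± 0.33, limma adjusted p = 0.0089) and JUND (0.97 ± 0.18, limma adjusted p = 0.015) were the 2 that also rose in the combination over A-485. Under TMM scaling 1 call remained, NFKB2 (1.58, limma adjusted p = 0.016), and NFKB2 was also kept without DMSO replicates 1 and 2 (1.38, adjusted p = 0.034), a setting in which 1 of the 70 was called. There the difference was 1.34 for SF3A2, 1.42 for TYMP, 1.24 for BCL2L1, 1.88 for SPATC1L and 0.96 for JUND, with limma adjusted p values from 0.10 to 0.14. With the GC trend of the libraries removed limma called 0 (1522 at an unadjusted p below 0.05; NFKB2 1.26, adjusted p = 0.065). Without that removal edgeR called 4 and DESeq2 106. The median GC content of the transcript ends was 60.2% over the 70 and 42.4% over all genes tested.

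**Figure D5:**
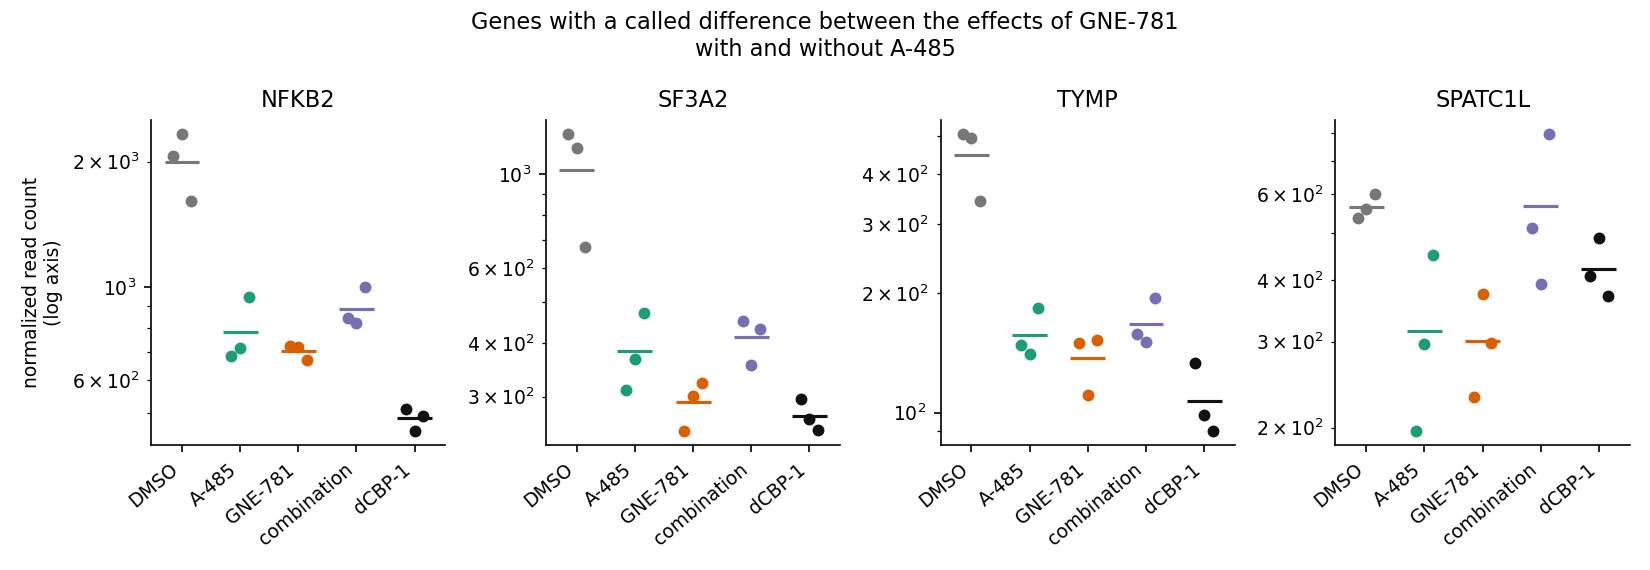
Normalized read counts (log axis, a separate scale for each gene) of NFKB2, SF3A2, TYMP and SPATC1L in the 3 libraries (points) of each of the 5 groups, with the group mean as a bar. For NFKB2, SF3A2 and TYMP the A-485, GNE-781 and combination libraries lie together below the DMSO libraries; for SPATC1L the combination libraries span the DMSO level.

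The reverse addition, of A-485 to GNE-781, shares the combination libraries and is given for its own values. By limma 0 of 16104 genes were called (0%). An unadjusted p below 0.05 was found for 494, where 805 would be expected if no gene differed. edgeR called 0 genes and DESeq2 7 lower ones. The 95% interval of a gene, not adjusted for the number of genes, had a median half-width of 0.44 on the log2 scale. For the 253 genes that fell when GNE-781 was added to A-485 the median of this contrast was −0.20, and for the 263 that rose 0.18. These genes were picked by the shared combination libraries, which favours such signs, also for MYC, IRF4 and EGR1. No conclusion is drawn from them. MYC had −0.78 (interval −1.46 to −0.09), with GNE-781 libraries at 334, 433 and 534. IRF4 had −0.36 (−0.76 to 0.03), with GNE-781 libraries at 691, 962 and 946, and EGR1 0.56 (0.06 to 1.06), with 254, 167 and 277.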

How the data were processed

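MM.1S transcripts were measured with a QuantSeq 3′ kit, so counts do not grow with transcript length. The labels name hg19; the aligner, counter, strandedness and normalization tool are not given in the sources used here, so antisense reads cannot be told apart. The authors deposited a gene-level signal, called normalized read counts. In it 100% of values were whole multiples of 1 step per library (tolerance 0.01 of a read), and whole reads were recovered from them. Values were read for 47459 genes; genes beyond the last row were not analysed here, nor were SPIB, BOP1, CCL3, CCL4, TRAC and PECAM1. Symbols matched 96.5% of rows. Spike-ins were not used here, so no value is RNA per cell.

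Tests ran on log2(value + 1), which understates fold changes of low genes. limma-trend (limma 3.58.1, R 4.3.3) was fitted two-sided in 1 model of the 5 groups to 16104 genes that reached a value of 5 in 3 or more of the 15 libraries. P-values were adjusted per comparison by Benjamini-Hochberg, and "rose", "fell" and "called" mean an adjusted p under 0.05. Errors are SE. The interaction is (combination minus A-485) minus (GNE-781 minus DMSO). Nothing says replicates were separate cultures, so p-values measure only the spread between libraries. Replicates differed by more than counting error (chi-square per degree of freedom 5.03 to 38.5). The fit was tested on simulated counts.

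Named are the 15 largest falls and rises among called genes whose groups did not overlap, with a mean no lower than that of the median gene; 5 each way for the interaction; up to 4 members per list by p; and CREBBP, EP300, MYC and IRF4. Other called list members and the octamer genes were named after their values were seen. The comparison, the 35 lists (30 in the plot and 5 of cell markers) and the rules were chosen with earlier results of these data known. Alternatives tried were other scalings (TMM, median-ratio, quantile), pseudocounts (0.25, 5), filters (none, 20), a fit of only the compared groups, a block on replicate number, limma's robust variance prior, other tools on recovered reads (edgeR 4.0.16, DESeq2 1.42.0), single libraries left out, and DMSO replicates 1 and 2 both left out. Removal of each library's trend with GC content over the final 500 transcript bases was chosen after seeing the data. The result of 1 gene is not reported here.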

Additional observations from a re-analysis of the deposited data

Results flagged for a closer look

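The effect of GNE-781 differed with and without A-485, by limma's interaction test, for 72 genes, but for 1 gene (NFKB2) under TMM, median-ratio or quantile scaling and for 0 with the GC trend removed. The 5 largest named differences were those of SF3A2 (1.89 on the log2 scale), SPATC1L (1.80), TYMP (1.78), NFKB2 (1.68) and MT-TV, a mitochondrial transfer RNA (1.55). Each of the 5 fell with GNE-781 against DMSO and was not called lower when GNE-781 was added to A-485; SPATC1L's fall against DMSO was not called without DMSO replicates 1 and 2 (−1.02, limma adjusted p = 0.081). MT-TV read 1492, 1324 and 1259 in DMSO, 511, 419 and 973 with A-485, 422, 506 and 442 with GNE-781 and 554, 467 and 760.0 with the combination. Its call ended under 15 alternatives, TMM scaling among them (1.44, limma adjusted p = 0.18). DMSO replicates 1 and 2 had the highest mitochondrial shares of reads, and the part of this in the differences was not tested beyond the fit without them, which called 2 genes.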

How the results depend on the processing

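Genes called for the combination against A-485 numbered 516, and 187 to 428 with 1 library left out. They numbered 990 with TMM, 979 with median-ratio and 958 with quantile scaling, 320 without a filter, 1013 with edgeR, 1413 with DESeq2, 1079 with the GC trend removed and 878 with that and the replicate block. The higher and lower genes were 271 and 708 with median-ratio scaling, 296 and 717 with edgeR, 470 and 943 with DESeq2, 331 and 748 with the GC trend removed. GNE-781 against DMSO gave 2679, 883 without DMSO replicates 1 and 2 together, and 1467 to 3689 with 1 library left out. The combination against GNE-781 gave 0, 7 with DESeq2, and 0 to 1 with 1 library left out. The interaction gave 72, but 1 with each of the 3 scalings, 13 without a filter, 34 with the replicate block, 4 with edgeR, 0 with the GC trend removed with or without the block, 2 without DMSO replicates 1 and 2 together, and 9 to 213 with 1 library left out. Replicate numbers did not pair the libraries: same-numbered combination and A-485 libraries deviated with correlations of −0.41, 0.30 and 0.40, and the replicate block gave 387 genes (178 higher, 209 lower) for that comparison. No gene named and called for the combination against A-485 or for the interaction changed sign. The near-even split of higher and lower genes, however, turned to mostly lower ones in the splits above. It turned to mostly higher ones without combination replicate 1 (257 and 149) or A-485 replicate 1 (290 and 138). Of the 30 list medians 11 changed sign under TMM scaling, 11 under median-ratio and 7 under quantile scaling, and 12 with the GC trend removed; those that did under TMM scaling had been at most 0.10 from 0. For named genes in the combination against A-485, 1558 values under an alternative kept their side of the threshold, 181 lost the call and 1 gained it (EP300). The cause of these changes was not tested. Depth and 3 libraries a group limit what could be called.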
